A study of Bos taurus with 4 samples.

Results

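Imprinted genes are expressed from one parental copy, and several of them act in pairs of growth promoters and growth restrainers. Their marks are set in the germ cells and have to be kept through the cleavage divisions, so they are often examined in embryos cultured in vitro. IGF2 encodes a fetal growth factor, IGF2R the receptor that binds it and delivers it to lysosomes, and PLAGL1 a zinc finger transcription factor that restrains proliferation and, in mouse, regulates other imprinted genes.

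The genes described are PLAGL1, IGF2R, IGF2, H19, PEG3, MEST, SNRPN, GRB10, CDKN1C and MEG3, taken as all array probes that the platform annotation gives to these symbols. Of these 10 genes, 7 had a probe, and together they held 12 of the 43794 transcript probes. PLAGL1 had 2 probes, IGF2 3, SNRPN 3, and IGF2R, PEG3, MEST and CDKN1C 1 each. No probe carried the symbols H19, GRB10 or MEG3, and 22004 probes of the array are unnamed here, so these 3 genes were not analysed. Of the 12 probes, 6 met the background criterion given below, and these stood for PLAGL1, IGF2R, IGF2, PEG3 and SNRPN. The members were chosen by measured values of this same comparison, namely the ratios of PLAGL1 and IGF2R on the 4 areas, so their ratios of high over control glucose are a description, and no test of them is given.

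The study compared bovine (Bos taurus) morulae made by in vitro maturation, fertilization and culture from slaughterhouse ovaries. High glucose embryos (HG) were cultured in synthetic oviductal fluid with 5 mM glucose from day 0 to day 3, control embryos (CTL) with 0.2 mM, and both then stayed in control medium to day 5. Each pool held 10 morulae collected at 120 h after fertilization, and each of 4 areas of 1 array slide carried 1 HG and 1 CTL pool. The RNA was amplified by T7 transcription before labelling, so intensities stand for amplified RNA. HG was labelled with Cy5 on areas 1 and 2 and with Cy3 on areas 3 and 4. The labels give the breed Holstein for one of the 2 channels of each area only. Pooled embryos of unrecorded sex and parentage give the mean of both parental copies, so allelic expression could not be read from these values. Whether each pool had its own fertilization is not stated in the labels, so p-values measure only the spread between these pools, which may be partly technical.

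Ratios are given on the log2 scale with HG over CTL, following the recorded dyes, as mean ± SD over the 4 areas unless stated otherwise. The median raw intensity over all probes was 210 to 287 in the Cy3 channel, while Cy5 had 153 to 163. A probe was called above background if the raw signal exceeded that of the negative control spots of the same area and dye, which set thresholds between 141 and 334. Probes above it in all HG or all CTL pools were tested, 15740 in all. Over these probes, limma's adjusted threshold was passed by 0, a background of 0%, with 1071 under 0.05 by unadjusted p (6.8%). The ratios of areas 1 and 3 correlated at -0.46 over these probes, although both read HG over CTL, while those of areas 2 and 4 correlated at 0.26. As recorded, area 1 correlated at 0.12 with area 2 and at 0.14 with area 4, and area 3 at 0.13 and 0.04. Turning area 1 or area 3 would make its correlations with areas 2 and 4 negative. The direction of areas 1 and 3 is therefore not settled by the values, so means of the tested member probes and counts over lists are also given with the sign of either one turned.

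Of the morula and trophectoderm markers, 7 of the 14 on the array were tested. The keratin gene KRT8 was at -1.68, -2.78, -1.84 and -0.92 on areas 1 to 4 (-1.80 ± 0.76, n = 4) and its partner KRT18 at 0.30, -2.73, -2.01 and -1.11. The pluripotency gene POU5F1 was at -0.54 ± 0.37, below 0 on every area, and NANOG at 0.47 ± 0.65 (n = 4 each). TFAP2C was at -0.09 ± 0.91, KLF4 at 0.38 ± 0.92 and ELF3 at 0.13 ± 0.34 (n = 4 each). SOX2, CDX2, GATA3, EOMES, CDH1, SALL4 and TEAD4 did not meet the criterion. Markers of follicular and stromal cells were also measured. Of 22 cumulus and granulosa markers 7 were tested, and FSHR, AMH, FOXL2, HAS2 and CYP11A1 were among those that were not. Of 23 stromal and fibroblast markers on the array 17 were tested. The cumulus genes TIMP1, STAR and INHBA and the stromal genes VIM and CCN2 were below -1 on area 1 and above 0.8 on area 3. Of 9 blood cell markers 2 were tested, HBB at 0.11 ± 0.76 and HBA at 0.23 ± 0.47 (n = 4 each). The stromal markers had medians of -1.94, 0.02, 2.02 and -0.63 on areas 1 to 4, and the cumulus markers of -1.92, 0.09, 2.11 and -0.38. Over all 7377 tested genes the median stayed between -0.07 and -0.01 on each area.

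PLAGL1 had higher signal in HG than in CTL on every area. Its brighter probe, EMBV3_18658, had raw intensities of 1297, 800, 1111 and 1323 in the HG pools of areas 1 to 4. In the CTL pools of the same areas it had 895, 318, 480 and 466. All 8 values lay above the background thresholds, and HG was the brighter pool within each area, whichever dye it carried. After normalization the log2 ratios were 0.89, 1.89, 0.92 and 1.34, a mean of 1.26 ± 0.47 (n = 4), or 2.39-fold. The mean was 1.39 on the 2 areas with HG in Cy5 and 1.13 on the 2 with HG in Cy3.

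The PLAGL1 log2 signals, normalized within each area only, lay between 9.70 and 10.44 in HG (10.04 ± 0.34, n = 4) and between 7.81 and 9.55 in CTL (8.78 ± 0.72, n = 4). The HG and CTL pools did not overlap, a separation with HG on top that was found for 2.36% of all tested probes, and with CTL on top for 2.04%. Among the 6 tested probes of the imprinted genes it was the 1 without overlap. By its mean, PLAGL1 was among 29 of 7377 genes (0.393%) that were past 2-fold higher in HG, but not among the 26 or the 207 genes past it with area 3 or area 1 turned. Of the 7 tested morula and trophectoderm markers, 3 were higher and 4 lower by the mean. KRT8 and POU5F1 were the 2 below 0 on every area, as were 8.87% of all tested genes. The part of these markers in the PLAGL1 values was not tested. The PLAGL1 ratios chose the gene, and no test of them is given.

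**Figure D1:**
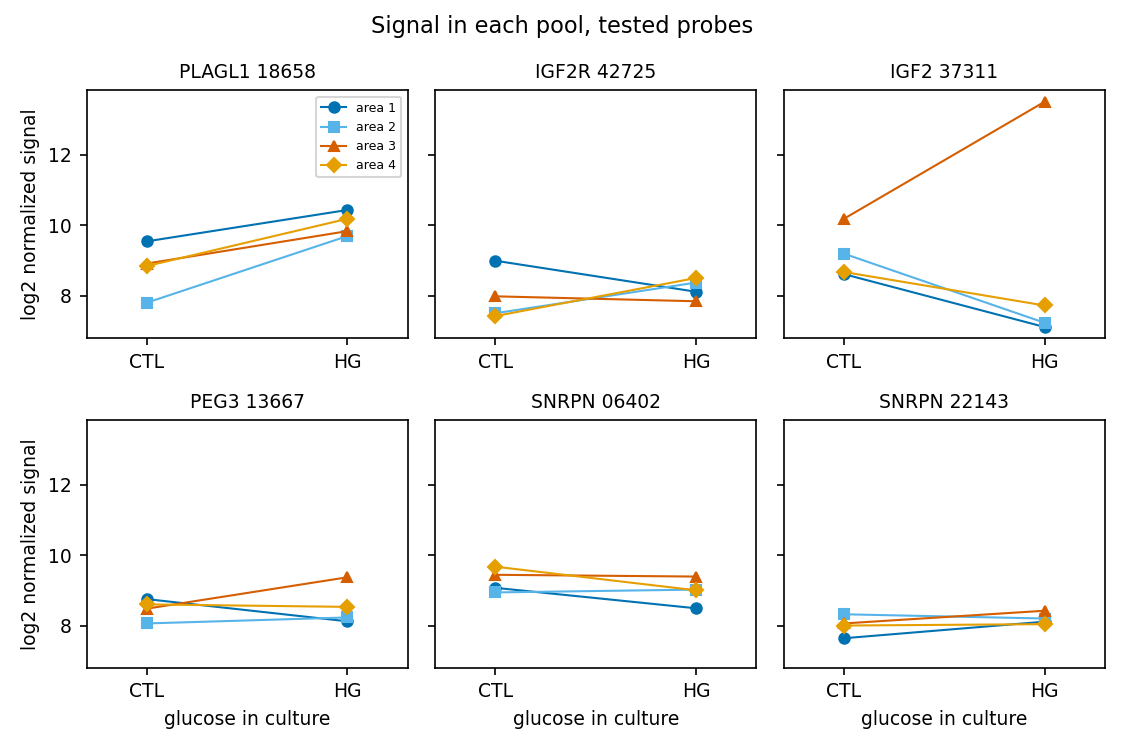
Log2 signal (normalized within each area) in the CTL and the HG pool of each area for the 6 tested probes of imprinted genes, lines joining the 2 pools of 1 area. The PLAGL1 lines all rise from CTL to HG, with HG pools between 9.70 and 10.44 and CTL pools between 7.81 and 9.55, while the IGF2 line of area 3 reaches 13.51 in HG and the other 3 fall.

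The other PLAGL1 probe, EMBV3_41344, was not above background in any of the 8 pools. Its raw intensities lay between 110.3 and 206.4 in HG and between 114.2 and 143.1 in CTL, and its log2 ratios were 0.75, 0.15, -0.20 and -0.35. This probe therefore gives no level of PLAGL1. The PLAGL1 result rests on 1 probe, whose place in the transcript is not given in the sources used here.

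In the authors' deposited log2 table, turned by dye, the brighter PLAGL1 probe had 1.13, 1.82, 0.83 and 1.29, a mean of 1.27 ± 0.42 (n = 4). The deposited values thus differed from those computed here by less than the SD over areas. With area 3 turned the mean was 0.80, and with area 1 turned 0.82. With areas 2 and 4 alone, on which the stromal markers lay nearer to 0, it was 1.61. The mean stayed above 0 under all 20 alternatives. With 4 ratios above 0 and of these sizes, leaving out or turning 1 area could not bring it below 0. Nothing is therefore read from that sign.

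The expression of the receptor gene IGF2R split between areas. Its 1 probe had raw intensities of 278, 348, 377 and 463 in the HG pools and of 656, 274, 252 and 192 in the CTL pools of areas 1 to 4, all above background. The log2 ratios were -0.88, 0.87, -0.14 and 1.08, a mean of 0.23 ± 0.91 (n = 4). HG was higher on areas 2 and 4 and lower on areas 1 and 3, so the mean is smaller than the spread. The log2 signals ran from 7.85 to 8.51 in HG and from 7.43 to 9.0 in CTL, and the HG range lay inside the CTL range. The mean was 0.97 on areas 2 and 4 alone, 0.67 with area 1 turned, 0.30 with area 3 turned, 0.60 without area 1, 0.36 without area 3, 0.02 without area 2 and -0.05 without area 4. The authors' deposited log2 table gave -0.70, 0.85, -0.13 and 0.96 for this probe.

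IGF2, the growth factor that IGF2R clears, had the widest spread of the members. Probe EMBV3_37311 had raw intensities of 158, 174.5, 11874 and 306 in the HG pools of areas 1 to 4 and of 517, 717, 1195 and 411 in the CTL pools. The HG pool of area 3 stood far above the other 7 pools, and the CTL pool of area 3 was the second highest. In the HG channel of area 3 the median pixel of the spot was 12768 against a local background of 37. Whether a fault of the spot had a part in this value was not tested. In log2 ratios the probe was at -1.5, -1.96, 3.32 and -0.96, so HG was lower on 3 areas and higher on area 3.

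The mean of this IGF2 probe was -0.27 ± 2.43 (n = 4), far within the spread. Without area 3 it was -1.47, and with the sign of area 3 turned -1.93. It was 0.13 without area 1, 0.29 without area 2, -0.05 without area 4 and 0.48 with area 1 turned. A ratio as high as that of IGF2 on area 3 was found on any area for 28 of 7377 genes (0.38%). The authors' deposited log2 table gave -1.27, -1.98, 3.27 and -0.84.

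A second IGF2 probe, EMBV3_41040, was above background in the HG pools of areas 3 and 4 and in 0 of the 4 CTL pools. Its raw intensities were 87.2, 96.2, 469 and 228 in the HG pools and 121, 202, 105 and 107 in the CTL pools. Its log2 ratios of -0.10, -0.94, 1.78 and 0.86 were highest on area 3 and lowest on area 2, as for probe EMBV3_37311, but differed from it in sign on area 4. Its mean of 0.40 ± 1.18 (n = 4) was -0.06 without area 3, -0.04 on areas 2 and 4 alone, -0.49 with area 3 turned and 0.45 with area 1 turned. No direction is given for this probe. The remaining IGF2 probe, EMBV3_16283, was not above background in any of the 8 pools, with log2 ratios between -0.08 and 0.20.

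PEG3, a paternally expressed zinc finger gene, was above background in all 8 pools. Raw intensities were 280.0, 321, 842 and 464 in the HG pools of areas 1 to 4 and 559, 368, 353 and 388 in the CTL pools. The log2 ratios were -0.62, 0.17, 0.89 and -0.07, with a mean of 0.09 ± 0.63 (n = 4). The highest value was on area 3 and the lowest on area 1, and the HG and CTL pools overlapped. The mean was 0.40 with area 1 turned and -0.35 with area 3 turned.

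IGF2 and PEG3 were the 2 of 5 tested member genes that were more than 1.5-fold lower on area 1 and more than 1.5-fold higher on area 3. The pattern was seen in 10.7% of all tested genes and in 12 of 17 stromal and 5 of 7 cumulus markers. It was also seen in 6 of 17 other imprinted genes and in 6 of 20 genes of the mannose 6-phosphate list, both described below. The summed normalized signal of the stromal markers in the HG pools was 39300 on area 1, 51400 on area 2, 249000 on area 3 and 71800 on area 4. In the CTL pools it was 132000, 66000, 87400 and 119000. The stromal sum was highest in the HG pool of area 3 and lowest in that of area 1, as was the IGF2 signal. Between these the order differed. The next highest stromal sums were in the CTL pools of areas 1 and 4. The next highest IGF2 log2 signals, 10.19 and 9.20, were in the CTL pools of areas 3 and 2. Not all markers had the pattern of areas 1 and 3. CYP19A1, the aromatase gene of granulosa cells, was at -0.83, -0.49, -0.42 and -0.24, and FN1, the fibronectin gene, at -0.66, -0.46, -0.63 and -1.15. The CYP19A1 probe had a mean log2 signal of 7.20, the lowest of the 7 tested cumulus markers, and the FN1 probe 14.68. The part of other cells in the IGF2 and PEG3 values was not tested. In pooled embryos, fewer cells of a type and less RNA per cell cannot be told apart. PLAGL1 did not share the pattern, as its values on areas 1 and 3 were 0.89 and 0.92.

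**Figure D2:**
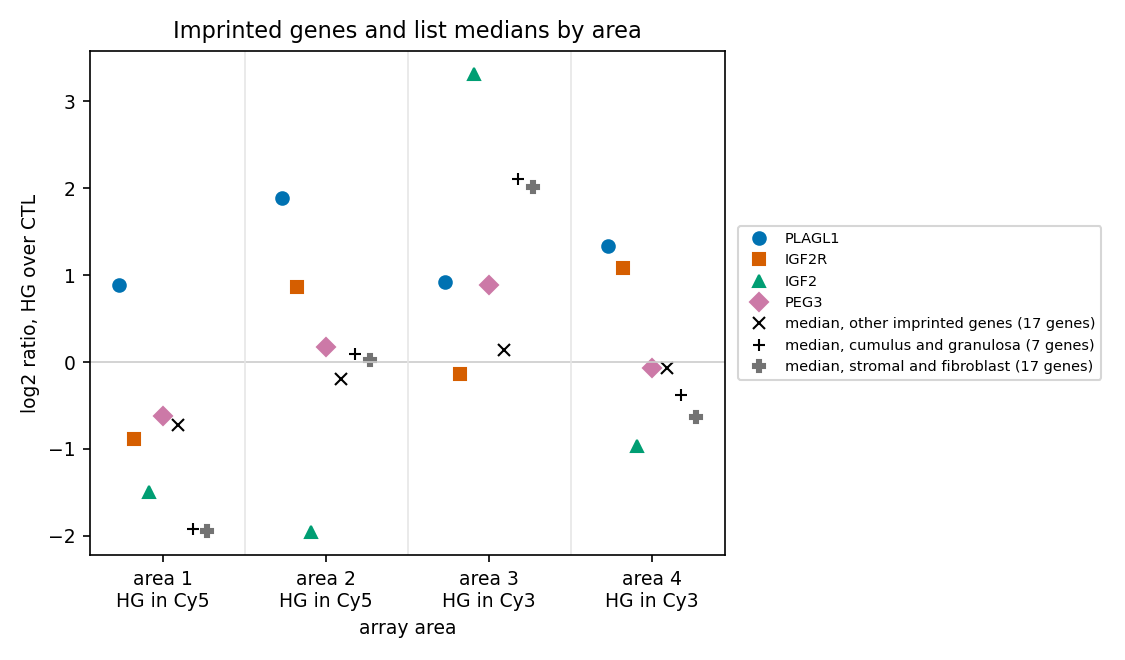
Log2 ratios of HG over CTL on each array area for 4 imprinted genes (coloured points) and the medians of 3 gene lists (crosses), points set side by side within an area. PLAGL1 stays between 0.89 and 1.89, while IGF2 and both marker medians lie below -1 on area 1 and above 2 on area 3, and IGF2R is above 0 on areas 2 and 4 only.

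SNRPN encodes a protein of the small nuclear ribonucleoproteins of the spliceosome, and its 2 tested probes pointed in different directions. Probe EMBV3_06402 had raw intensities of 349, 508, 839 and 619 in HG and of 678, 610, 670 and 789 in CTL. Its log2 ratios were -0.58, 0.08, -0.04 and -0.67, a mean of -0.30 ± 0.37 (n = 4). Probe EMBV3_22143 had 277, 311, 499 and 354 in HG and 294, 426, 266 and 264 in CTL, with log2 ratios of 0.47, -0.12, 0.35 and 0.04 and a mean of 0.18 ± 0.27 (n = 4). Both means were smaller than their SD. With area 1 turned they were -0.01 and -0.05, and with area 3 turned -0.28 and 0.01. No direction can be given for the gene. The remaining probe, EMBV3_12137, was not above background in any pool and lay between -0.01 and 0.08.

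MEST and CDKN1C were near the background. MEST, a paternally expressed gene of the hydrolase fold family, was above it in HG and in CTL on areas 1, 3 and 4, and so missed the criterion by 1 area. Its log2 ratios were 0.04, 0.63, 0.07 and 0.07, above 0 on every area, and the highest came from area 2, where neither pool was above background. Among probes that were not tested, 3.73% were above 0 on every area. CDKN1C, the maternally expressed inhibitor of cyclin-dependent kinases, was above background in both pools of area 1 alone, and its ratios lay between -0.25 and 0.12.

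**Figure D3:**
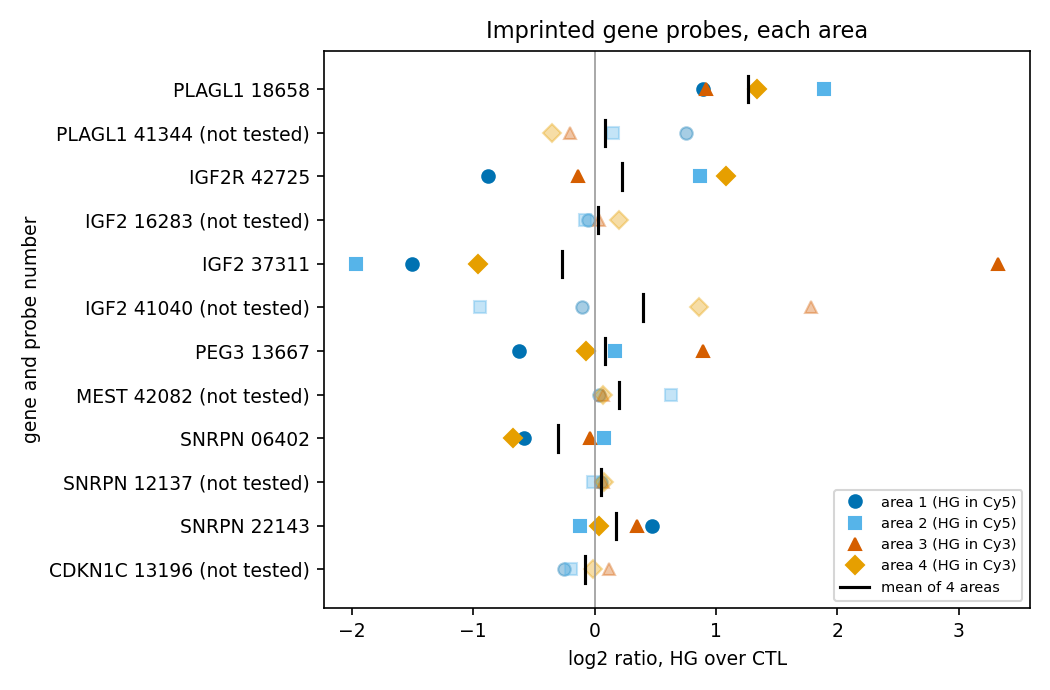
Log2 ratio of HG over CTL for every probe of the imprinted genes, 1 point per array area and a black bar at the mean of 4 areas; pale points are probes that did not meet the background criterion. PLAGL1 probe EMBV3_18658 has all 4 points between 0.89 and 1.89, whereas IGF2 probe EMBV3_37311 spans -1.96 to 3.32.

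Of the 5 tested member genes, 1 (PLAGL1) was higher in HG on every area and 0 were lower on every area. Over all tested genes 5.8% were higher on every area and 8.87% lower. By the mean 3 of the 5 were higher, beside 43.9% of all tested genes. With area 3 turned, 0 of the 5 were higher and 1 lower on every area, where all tested genes had 8.32% and 9.71%. With area 1 turned it was 0 in either direction, where all tested genes had 8.54% and 8.66%. Since the comparison itself chose the members, nothing is read from this count.

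The effect of the dye is another contrast than the one that chose the members, and it was tested as the mean Cy5 over Cy3 ratio in the same fit. PLAGL1 probe EMBV3_18658 had a dye term of 0.13 and IGF2R of -0.24, and nothing is read from their size. IGF2 probe EMBV3_37311 had -1.46 (limma, adjusted p = 0.698), and PEG3 had -0.32 (limma, adjusted p = 0.718). The terms of the SNRPN probes were 0.05 and -0.01 (limma, adjusted p = 0.941 and 0.985). None of the 15739 probes fitted passed the adjusted threshold (0%), and 911 were under 0.05 by unadjusted p (5.79%). A miss does not show that a dye effect was absent.

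The wider set of imprinted genes held 52 listed genes known to be imprinted in at least one mammal, of which 42 were on the array and 17 tested. Their status in cattle was not examined. None passed limma's adjusted threshold in either direction (smallest adjusted p = 0.715 and smallest unadjusted p = 0.0136). By the mean, 6 were higher and 11 lower in HG, with a median of -0.10, where that over all tested genes was -0.04. With area 1 turned, 10 were higher and 7 lower and the median was 0.09. With area 3 turned, 7 were higher and 10 lower and the median was -0.24. Without area 3 the median was -0.37. On areas 1 to 4 the medians were -0.72, -0.20, 0.14 and -0.07. Of the 17, 6 had the pattern of areas 1 and 3 described for IGF2 and PEG3, beside 10.7% of all tested genes. DCN, which is also on the stromal list, was among them, at -1.18 and 2.18 on these areas.

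In this set 1 gene was higher and 3 were lower on every area, 23.5% of 17 beside 14.7% of all tested genes. With area 3 turned the share was 23.5% beside 18%, and with area 1 turned 5.88% beside 17.2%. NAP1L5, a nucleosome assembly protein gene, was at -0.72, -1.40, -0.34 and -0.38 (-0.71 ± 0.49, n = 4). NAP1L4, of the same family, was at -0.87, -0.73, -0.87 and -0.25 (-0.68 ± 0.30, n = 4). BLCAP was at -0.50, -0.20, -0.58 and -0.32. SLC22A18, a transporter gene that neighbours CDKN1C in the RefSeq gene order, was at 0.18, 0.14, 0.14 and 0.46. The members with the most signal, GNAS, PON2 and NDN, were at -0.35 ± 0.61, 0.29 ± 0.47 and 0.04 ± 0.40 (n = 4 each). With area 1 turned or area 3 turned, the means were -0.35 or -0.54 for NAP1L5 and -0.24 in both cases for NAP1L4, while those of GNAS, PON2 and NDN changed sign under at least one of them. GNAS encodes the stimulatory G protein alpha subunit, and its other probe was also below 0 on areas 1, 2 and 4.

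Genes next to the members in the RefSeq order were looked at in the same way, 2 named genes on each side. Beside PLAGL1, the splicing factor gene SF3B5 was at 0.40, 0.30, 0.08 and -0.54, and LTV1, which acts in ribosome assembly, at 1.22, 0.53, -1.11 and -0.43. Neither had the PLAGL1 values. Beside IGF2, MRPL23 was at -0.66, 0.42, -0.13 and 0.37, while INS and TH were not tested. COPG2 next to MEST was at -0.74, -0.41, 1.39 and -0.79. Beside SNRPN, NDN was at 0.57, -0.05, -0.41 and 0.04 and UBE3A, a ubiquitin ligase gene, at -0.03, 0.34, -0.12 and 0.09. No tested neighbour of IGF2R was found.

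Of the IGF system genes, 8 of 24 on the array were tested, and 0 passed the adjusted threshold (smallest adjusted p = 0.732, limma; smallest unadjusted p = 0.0635). By the mean 3 were higher and 5 lower, with a median of -0.06. INSR, the insulin receptor gene, was at 0.42, 0.52, 0.28 and 0.38 (0.40 ± 0.10, n = 4), with a mean of 0.19 with area 1 turned and 0.26 with area 3 turned. By the mean 4 of the 8 were higher with area 1 turned and 5 with area 3 turned. IGFBP4, which binds IGFs, was at 0.06, 0.14, 0.14 and 0.24. IGFBP7 had the displacement of areas 1 and 3 described for the stromal markers, at -4.42, 0.57, 2.83 and -0.28. IGF2BP1, which binds IGF2 mRNA, was at -0.12 ± 0.22 and the adaptor gene SHC1 at -0.21 ± 0.24 (n = 4 each). IGF1, IGF1R, IGFBP2 and IRS1 did not meet the background criterion.

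IGF2R also carries enzymes tagged with mannose 6-phosphate to lysosomes, together with a smaller receptor, M6PR. A list of this sorting route, which also holds lysosomal membrane and urokinase system genes, had 26 genes on the array. Of these 20 were tested and 0 passed (limma, smallest adjusted p = 0.715 and smallest unadjusted p = 0.00612). By the mean 5 were higher and 15 lower, with a median of -0.32, and 3 were higher and 5 lower on every area, 40% of 20 beside 14.7% of all tested genes. With area 3 turned the share was 10% beside 18%, with 7 higher and 13 lower by the mean. With area 1 turned it was 5% beside 17.2%, with 12 higher and 8 lower by the mean. Of the 20, 6 had the pattern of areas 1 and 3 described for IGF2 and PEG3, beside 10.7% of all tested genes. The brightest M6PR probe was at 0.87, 0.88, 0.85 and 0.44 (0.76 ± 0.21, n = 4). Its other probes were at -0.31 ± 0.73 and -0.05 ± 0.27 (n = 4 each), so the probes differ and no direction is given for the gene. With area 1 or area 3 turned the first probe had 0.32 or 0.33. The lysosomal membrane gene LAMP2 was at -0.54, -0.67, -0.46 and -1.15, and VPS26A, of the retromer that returns the receptor, at -0.64, -1.11, -0.18 and -0.57. The other VPS26A probes were not below 0 on every area, with 0.34, -0.95, -0.25 and -0.36 for one and -0.01, -1.17, -0.12 and 0.35 for the other. PLAU, the urokinase gene, was at -0.30, -0.82, -1.06 and -0.93. LAMP2 and PLAU were among the 5 genes lower on every area, so the counts of this list do not stand for the sorting route alone. AP1G1 and SNX2, 2 of the 3 genes with the most signal, were at 0.00 ± 0.30 and -0.05 ± 0.35 (n = 4 each).

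Of the PLAG family and the inhibitors of cyclin-dependent kinases, 5 of 11 genes on the array were tested, 3 higher and 2 lower by the mean, and 0 passed (smallest adjusted p = 0.846, limma; smallest unadjusted p = 0.203). PLAG1, the relative of PLAGL1, was at -0.08, -0.12, 0.45 and 0.18 (0.11 ± 0.27, n = 4), and PLAGL2 did not meet the criterion. The inhibitor gene CDKN2B was at -0.51, 0.36, 2.27 and 0.37 by one probe and at -0.65, 0.80, 0.56 and -0.04 by another, and CDKN2D at -0.98, -0.16, -0.31 and 0.61. With area 3 turned 1 of the 5 was higher, and with area 1 turned 3 were. CDKN1A was not above background often enough to be tested.

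Genes that keep, set or remove DNA methylation and imprints, taken as 1 list, had 11 of 21 tested. By the mean 2 were higher and 9 lower, with a median of -0.19. The list mixes opposing functions, so these counts do not stand for imprint maintenance alone. The adjusted threshold was passed by 0 (smallest adjusted p = 0.830, limma, and smallest unadjusted p = 0.177, limma). The DNA methyltransferase gene DNMT3A was at -0.08, -0.72, -0.32 and -0.10 (-0.31 ± 0.30, n = 4) and CTCF, which insulates IGF2 from shared enhancers, at -0.25, -0.02, -0.92 and -0.04. DPPA3, which shields maternal methylation in mouse zygotes, was at -0.44 ± 0.84 (n = 4), with -1.66 on area 3. The demethylating enzyme gene TET3 was at -2.60, 0.34, 0.64 and 0.80. With area 3 turned 6 of the 11 were higher and 5 lower, with a median of 0.01, and with area 1 turned 4 and 7. ZFP57, DNMT1 and DNMT3L did not meet the background criterion.

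The tested genes whose 4 ratios lay closest to those of PLAGL1 were CPEB4, CALB1, ZNF394 and PPP1R13B, by the root mean square difference over the 4 areas among 7314 genes. CPEB4, a regulator of cytoplasmic polyadenylation, had 0.85, 1.80, 0.92 and 1.47, a difference of 0.08. The other 3 differed by 0.33, 0.39 and 0.39, beside a median difference of 1.47 over all genes. Closest to IGF2R were EFNA1, IMPDH1, FOSB and PPP4C, at 0.15, 0.15, 0.20 and 0.21, where the median was 0.99. The closest of 7314 genes lie far below the median by the way they were picked, so the medians do not measure how unusual the closeness is. With 4 areas, such closeness is a description of these arrays.

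**Figure D4:**
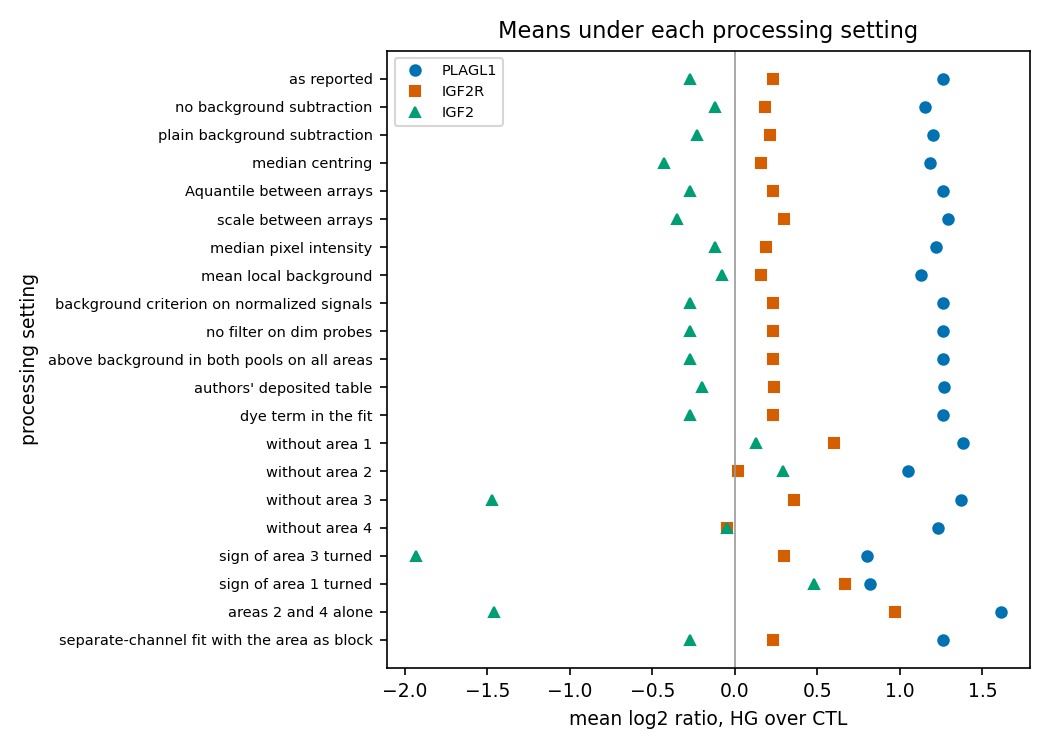
Mean log2 ratio of HG over CTL for PLAGL1 (probe EMBV3_18658), IGF2R (probe EMBV3_42725) and IGF2 (probe EMBV3_37311) as reported and under each of 20 other settings, 1 row per setting. PLAGL1 lies between 0.80 and 1.61 throughout, IGF2R between -0.05 and 0.97, and IGF2 between -1.93 and 0.48.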

How the data were processed

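The deposited scanner files hold raw intensity per spot at 532 nm (Cy3) and 635 nm (Cy5) with local background, per the file headers. The authors' deposited log2 ratios of the same arrays, made with limma per the submitters' processing notes, were an alternative. They ran as Cy5 over Cy3 (r = 0.976 to 0.993 with the scanner ratios, column medians -0.01 to 0.02). Their background correction and normalization are not given in the sources used here.

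Mean pixel intensities with median local background were corrected by normexp (offset 50) and normalized within areas by loess (limma 3.58.1, R 4.3.3), with the 1426 control spots at weight 0. Ignored spots (29 to 151 per area) were set to missing, none of them of the members. The threshold for background lay 2 SD above the mean raw log2 signal of the 153 negative controls. Ratios, turned to HG over CTL, were fitted with lmFit and eBayes and adjusted by Benjamini-Hochberg over all tested probes. The fit was also run on simulated data with independent noise for each probe and area. The measured areas correlate with each other, so that run does not show error control on these arrays. A gene stood by its tested probe with the highest mean signal. Symbols came from the platform annotation, with 982 of 15229 updated through RefSeq synonyms (ARS-UCD2.0). Members and lists were chosen with earlier results of these data known. All members were named, with, per list, the 3 brightest tested genes, up to 4 with the same sign on every area, and the 4 genes closest to PLAGL1 and to IGF2R; KRT18, NANOG, ELF3 and other list members named beside these, and the neighbours, were chosen after their values were seen. The number of arrays, 4, limits the precision.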

Additional observations from a re-analysis of the deposited data

Results flagged for a closer look

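Of 61 results examined for 1 area far from the other 3, 5 stood out, where chance gives about 1 in 20. MEST probe EMBV3_42082 had 0.63 on area 2, where it was not above background, against 0.04 to 0.07 on the other areas. SLC22A18 had 0.46 on area 4 against 0.14 to 0.18. The brightest M6PR probe had 0.44 on area 4 against 0.85 to 0.88. TET3 had -2.60 on area 1 against 0.34 to 0.80. The median of the morula and trophectoderm markers was -1.04 on area 3 against -0.17 to -0.03. IGF2 probe EMBV3_37311, with 3.32 on area 3, did not meet this criterion, because its other 3 values were themselves spread from -1.96 to -0.96.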

How the results depend on the processing

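Under 20 alternatives the mean of PLAGL1 probe EMBV3_18658 stayed between 0.80 and 1.61. Filters, Aquantile scaling, the dye term and the block cannot move a probe's mean ratio by their construction. IGF2R kept its sign in 19 of 20 and IGF2 probe EMBV3_37311 in 17 of 20. Leaving out 1 area at a time gave 1.05 to 1.38 for PLAGL1, -0.05 to 0.60 for IGF2R, -1.47 to 0.29 for IGF2 and -0.37 to -0.03 for the median of the other imprinted genes. The count of probes past limma's adjusted threshold was 0 under the alternatives run, except with areas 2 and 4 alone, where it was 55 (1895 by unadjusted p); the cause was not tested. The separate-channel fit with the area as a replicate block also called 0 probes (1192 under 0.05 by unadjusted p), with PLAGL1 at 1.26. For the dye term 0 probes passed under the alternatives run, with 8198 of 43791 under 0.05 by unadjusted p without a filter on dim probes. Median centring moved the median of all tested genes from -0.04 to -0.11, with 4 other imprinted genes higher and 13 lower. Without the filter these were 23 higher and 19 lower of 42. Mean local background and the background criterion on normalized signals were alternatives chosen after seeing the data. Low signal limits 6 of the 12 member probes: 3 were above background in 0 pools, and MEST, CDKN1C and IGF2 probe EMBV3_41040 on some areas.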
